A study of Homo sapiens with 14 samples.

Results

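The genes described here are 45 genes of DNA replication and of the step from G1 into S phase, chosen by gene symbol, with the probe set of highest mean signal standing for each gene. They are 45 of 19775 genes with a probe set, and each of the 45 passed the filter on low signal that left 13128 genes for testing. HepG2, a human liver tumour cell line, was transfected with miR-124, a small RNA abundant in neurons, or with a negative control whose sequence the labels do not give. Total RNA was profiled on 1-colour oligonucleotide arrays at 4, 8, 16, 24, 32, 72 and 120 h after transfection. There was 1 array for each transfection and time, 7 per transfection and 14 in all, so the comparison at a single time has no replicate. The values are log2 signals made with RMA, which forces the arrays to a common distribution, so a change in the total messenger RNA of a cell cannot be seen.

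Before S phase, the origin recognition complex (ORC subunits) marks start sites of replication, and CDC6 and CDT1 load the MCM2 to MCM7 helicase there, a step held back by geminin (GMNN). In S phase CDC45, the GINS complex and MCM10 turn the helicase on, primase and the polymerases copy the strands, RFC loads the sliding clamp PCNA, and FEN1 and LIG1 join the lagging-strand fragments. Ribonucleotide reductase, thymidylate synthase and thymidine kinase supply nucleotides, while CAF-1 and ASF1 put histones on the new DNA. Many of these genes are known targets of E2F transcription factors, which the retinoblastoma protein holds in check until cyclin-dependent kinases act.

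E2F recognition sequences could be read in the promoters. RefSeq promoter windows (GRCh38.p14, 250 bases before to 50 bases after the annotated start) were available for 39 of the 45 genes. The letters TTTGGCGC or TTTCCCGC or TTTCGCGC or TTTGCCGC, searched on both strands, were found in 21 of the 39 windows (53.8%), against 3.33% of all 27305 windows and 5.12% of the 10538 windows of tested genes. The CCAAT box was found in 59.0% of the members' windows, 35.7% of all windows and 36.3% of the windows of tested genes. The letters TTTGAA or TTCGAA, the CHR element known from mitotic genes, were found in 3 of the 39 members' windows (7.69%). Their share was 16.6% of all windows and 11.4% of the windows of tested genes. Among 25 mitosis genes with a window the order was turned, with the CHR letters in 72.0% and the E2F letters in 8.0%. The E2F matches of MCM2 and of MCM6 overlap one another, and 1 match in MCM7 shares a base with a CCAAT box. A match says only that the letters are present, and binding was not measured.

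Stretches of 100 bases directly before the annotated start are shown for 7 genes with an E2F match, since they set strongly responding genes beside weakly responding ones. Capitals mark the E2F letters on either strand, and each line runs 5′ to 3′ on the gene's own strand. DTL lies at chr1:212035648-212035747 on the plus strand, GINS2 at chr16:85688955-85689054 on the minus strand, UHRF1 at chr19:4909401-4909500 on the plus strand and MCM6 at chr2:135876444-135876543 on the minus strand. E2F1 lies at chr20:33686386-33686485 on the minus strand, PCNA at chr20:5126623-5126722 on the minus strand and TYMS at chr18:657553-657652 on the plus strand.
DTL: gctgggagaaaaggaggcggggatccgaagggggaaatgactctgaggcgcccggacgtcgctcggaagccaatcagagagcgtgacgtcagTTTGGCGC
GINS2: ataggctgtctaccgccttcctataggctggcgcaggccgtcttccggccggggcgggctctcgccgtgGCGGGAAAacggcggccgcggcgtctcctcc
UHRF1: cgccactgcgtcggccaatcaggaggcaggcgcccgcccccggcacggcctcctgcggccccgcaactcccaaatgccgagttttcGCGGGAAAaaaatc
MCM6: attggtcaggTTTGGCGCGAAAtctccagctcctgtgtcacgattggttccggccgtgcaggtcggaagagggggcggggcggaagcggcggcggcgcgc
E2F1: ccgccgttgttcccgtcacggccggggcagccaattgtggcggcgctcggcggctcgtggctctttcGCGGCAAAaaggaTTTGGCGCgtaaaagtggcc
PCNA: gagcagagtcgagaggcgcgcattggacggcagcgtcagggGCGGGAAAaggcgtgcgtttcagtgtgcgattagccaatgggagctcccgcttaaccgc
TYMS: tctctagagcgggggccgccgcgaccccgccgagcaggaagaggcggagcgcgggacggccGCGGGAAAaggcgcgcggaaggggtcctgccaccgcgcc
DTL, GINS2 and UHRF1 were among the genes that fell most at 72 h, MCM6 was near the middle of the members, E2F1 fell little, and PCNA and TYMS did not pass the test. With an E2F match, the median log2 ratio at 72 h was −1.46 over 21 genes, of which 17 were called lower. Without one it was −1.20 over 18 genes, of which 17 were called lower. Other forms of the E2F site were not searched for, so these 18 genes are not shown to lack one.

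**Figure D1:**
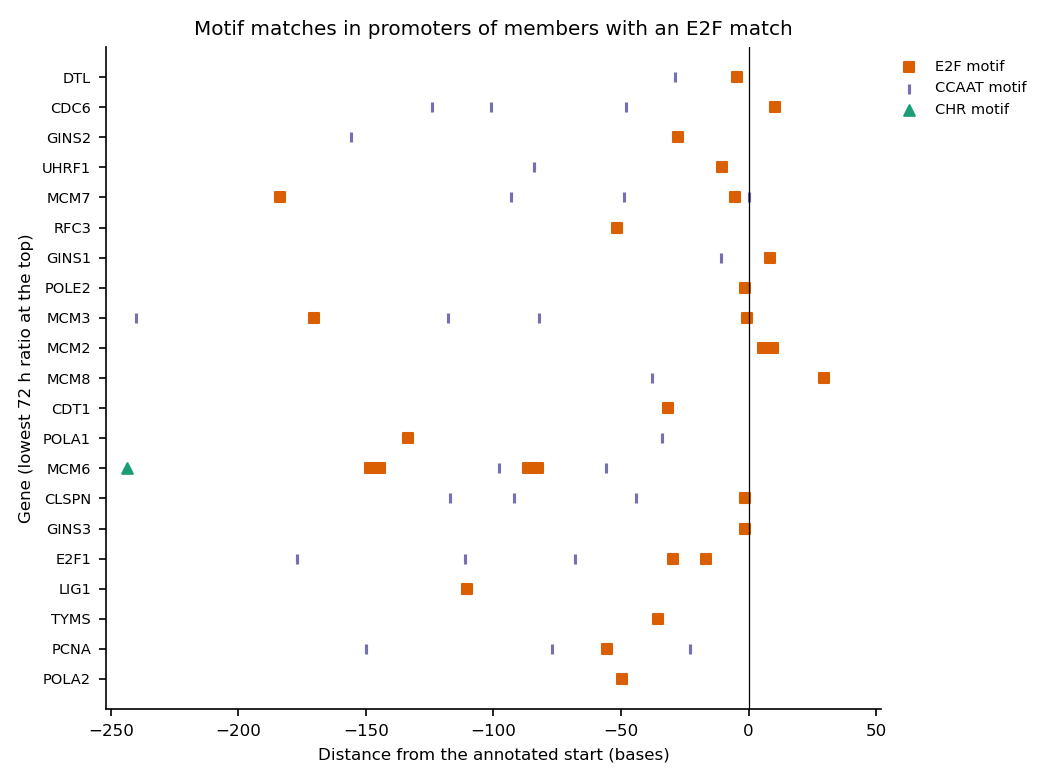
Positions of E2F, CCAAT and CHR letters in the promoter windows of the 21 genes with an E2F match, as distance in bases from the annotated start (0), ordered by the 72 h log2 ratio (miR-124 over control) with the lowest at the top. Matches sit in strongly lowered genes such as DTL at the top and in PCNA and POLA2, at the bottom, which were not called at 72 h.

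Hepatocyte markers checked the cell type: 12 of 14 listed were measured, all above the filter, with means of 8.85 to 13.9 log2. Of the blood cell markers 5 of 8 were measured and 3 passed the filter, LYZ highest at 12.6. Of the fibroblast and endothelial markers 7 of 11 passed, COL1A1 highest at 8.44. Over the course the mean of each list lay at 12.5 to 12.8 log2 in miR-124 cells and 12.5 to 13.0 log2 in control cells for the hepatocyte list, 7.73 to 8.22 and 7.60 to 7.90 for the blood list, and 6.02 to 6.18 and 6.02 to 6.17 for the fibroblast and endothelial list. Single markers did change at 72 h by the limma test described below for the members. CD3D, a T cell receptor component, was 4.14-fold higher with miR-124 (log2 ratio 2.05 ± 0.17, adjusted p = 9.92e-05) and still 1.78-fold higher at 120 h, and the endothelial marker PECAM1 was 1.56-fold higher at 72 h. The fibrinogen gene FGA was 2.80-fold lower at 72 h (−1.49 ± 0.11) and called lower again at 120 h (−0.97 ± 0.11), and APOH and FGB were at −0.61 ± 0.10 and −0.58 ± 0.11 at 72 h. The part of these changes in the members' results was not tested. The 4 h array of miR-124 cells stood apart in its 18S ribosomal RNA control probe sets, at 11.1 log2 against 8.70 in its control partner, where the other 12 arrays lay between 7.31 and 9.20. RNA quality was read as 3′ minus 5′ probe set signal, which for ACTB was 0.357 log2 in miR-124 cells and 0.237 log2 in control cells at 72 h, and 0.411 and 0.102 log2 at 120 h. For GAPDH it was 0.301 and 0.145 log2 at 72 h, and 0.199 and 0.0311 log2 at 120 h. The highest ACTB value of the 14 arrays was in miR-124 cells at 24 h, 0.561 against 0.271 log2 in control cells, in the pair whose removal most changes several counts below. The part of RNA quality in the results at those times was not tested.

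Replication genes were close to their control level through the first day, fell at 72 h and were back near control at 120 h. The median of the 45 log2 ratios, miR-124 over control, read −0.05, 0.04, 0.03, −0.01, −0.20, −1.22 and −0.14 from 4 to 120 h. The median over all tested genes stayed between −0.02 and 0.05 at every time. At 72 h, 44 of the 45 genes were below control and 32 were at least 2-fold lower, a level that 5.93% of all tested genes reached. At 120 h none of the 45 was at least 2-fold lower, against 1.17% of all tested genes. In a bulk sample, fewer cells in S phase and less of these messengers per cell cannot be told apart.

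**Figure D2:**
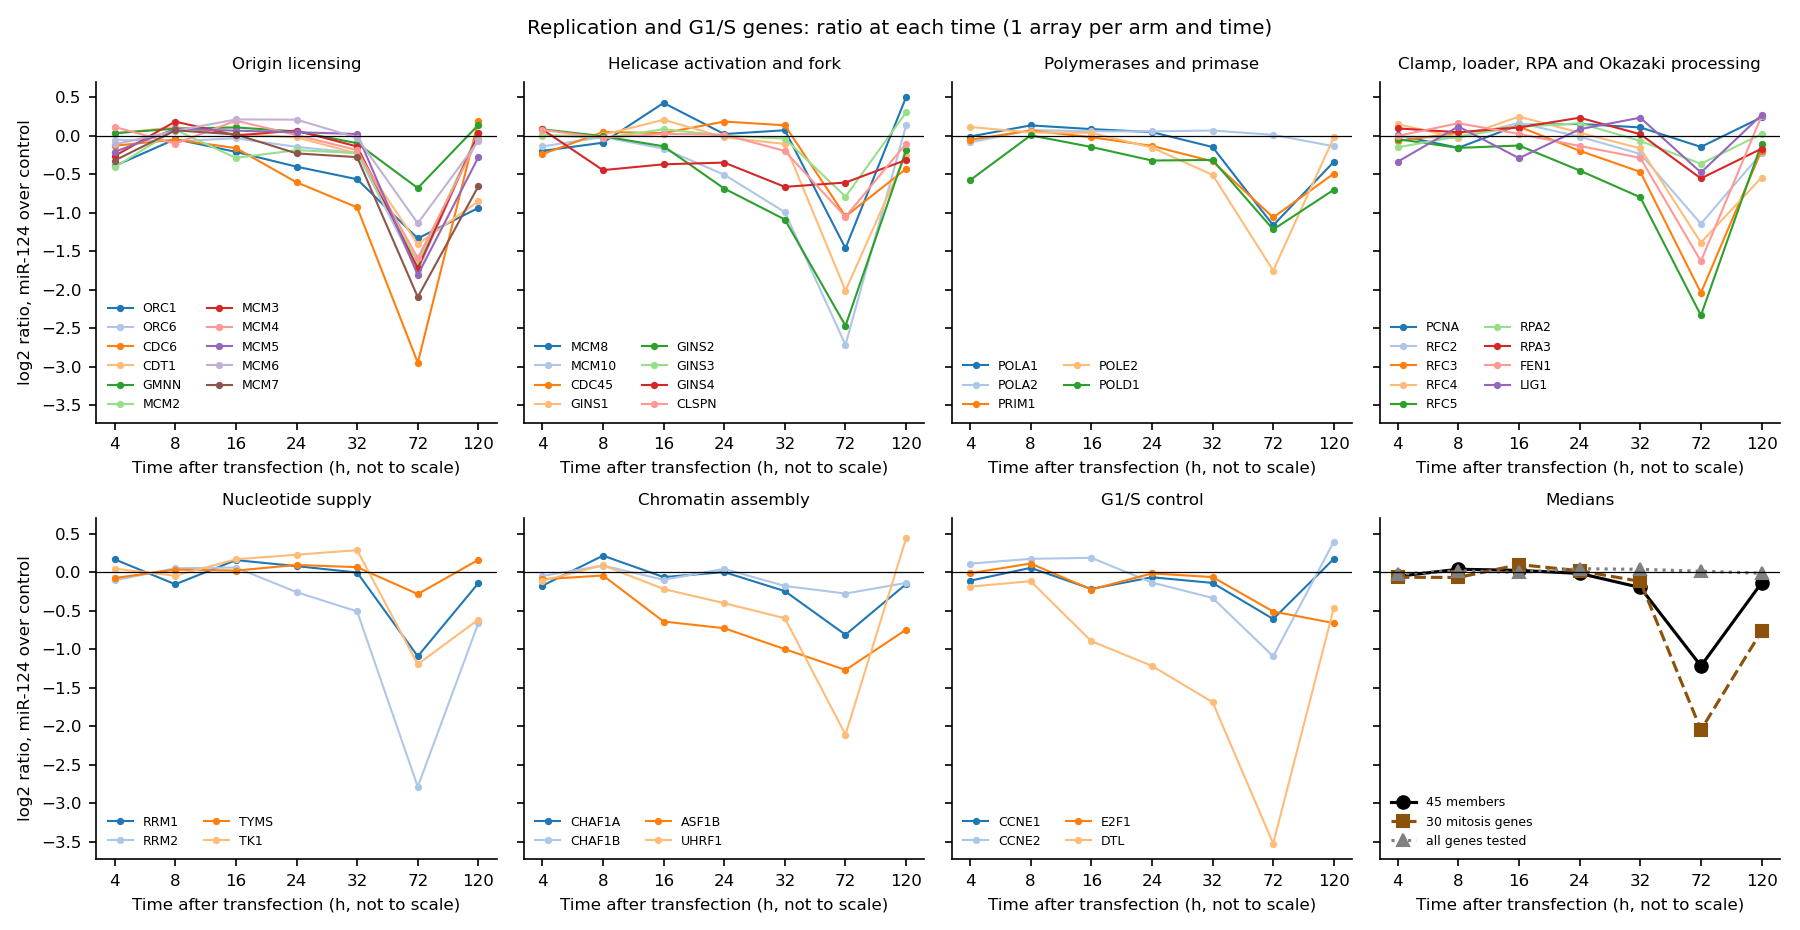
Log2 ratio of miR-124 over negative control (vertical axis) at each of the 7 times (horizontal axis, hours after transfection, not to scale) for each gene, in panels by role, with medians of the 45 genes, of 30 mitosis genes and of all tested genes in the last panel. The median of the 45 genes drops to −1.22 at 72 h and stands at −0.14 at 120 h, while that of the mitosis genes drops to −2.05 and stands at −0.76.

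The effect was tested with limma in 4 periods, early (4 and 8 h), middle (16, 24 and 32 h), 72 h and 120 h, with time as a block. A gene is called where its Benjamini-Hochberg adjusted p over all 13128 genes was under 0.05, and each ± is the standard error of that fit. Its spread is that of the ratio between times within the early and middle periods (3 residual degrees of freedom), and the lone pairs at 72 h and 120 h are assumed to vary likewise. In the early period none of the 45 was called in either direction and none reached an unadjusted p under 0.05, with 0% of all genes called lower and 0% called higher (449 at an unadjusted p under 0.05). Averaged over all 7 times none of the 45 was called either, with 0.00762% of all genes called lower and 0% higher (3410 at an unadjusted p under 0.05, 5 of the 45 among them, all lower). At 72 h, 40 of the 45 genes were called lower and 0 higher, with 19.8% and 17.4% of all genes. At 120 h, 11 were called lower and 1 higher, with 8.68% and 14.6% of all genes. Without the block the count lower at 120 h was 4, and without the 24 h pair it was 6.

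A minority of the 45 moved earlier. In the middle period 9 were called lower and 1 higher, with 8.2% and 8.54% of all genes. The 9 were DTL, ASF1B, GINS2, CDC6, MCM10, GINS4, RFC5, UHRF1 and ORC1, with log2 ratios of −1.26 ± 0.13 for DTL, −0.79 ± 0.08 for ASF1B and between −0.64 and −0.39 for the other 7. TK1, thymidine kinase, was the gene called higher, at 0.23 ± 0.06 (adjusted p = 0.0348), a call lost without the block, with a 1.5-fold minimum, with 3 windows, with the mean over probe sets, and without the 24 h or the 32 h pair. Those counts are less steady than the ones at 72 h: without the block 3 were called lower, and without either the 24 h or the 32 h pair 2 were. ORC1, RFC5, ASF1B and DTL were below control at all 7 times.

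Origin licensing genes fell together at 72 h, with 11 of 11 called lower and a median log2 ratio of −1.64. CDC6, which loads the MCM helicase onto origins, fell most. Its log2 level in miR-124 cells was 10.11, 9.83, 10.21, 9.70, 9.07, 7.30 and 9.10 from 4 to 120 h. In control cells it was 10.24, 9.88, 10.37, 10.30, 10.00, 10.24 and 8.90. The 72 h array of miR-124 cells was the lowest of all 14, 7.70-fold below its partner (log2 −2.94 ± 0.21, adjusted p = 5.98e-05), and the 120 h control array had itself dropped. At 120 h the CDC6 ratio was 0.19 ± 0.21 (adjusted p = 0.551), so 120 h minus 72 h gave 3.14 ± 0.30 (adjusted p = 0.00306). A second CDC6 probe set gave −2.64 at 72 h and 0.20 at 120 h.

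MCM7, a subunit of the helicase, was 4.27-fold lower at 72 h, at 7.98 log2 in miR-124 cells against 10.07 in control cells (log2 ratio −2.09 ± 0.16, adjusted p = 6.65e-05). It came back only in part, with 9.01 in miR-124 cells and 9.67 in control cells at 120 h (log2 ratio −0.65 ± 0.16, adjusted p = 0.0204). The other helicase subunits MCM2, MCM3, MCM4, MCM5 and MCM6 had ratios of −1.81 to −1.14 at 72 h and of −0.28 to 0.04 at 120 h, and none of these 5 was called at 120 h. MCM4 had 5 probe sets, and the dimmest of them did not follow the others (0.06 at 72 h). ORC6 behaved like these subunits, at −1.76 ± 0.11 and 0.04 ± 0.11. ORC1 and CDT1 did not: they were at −1.33 ± 0.16 and −1.40 ± 0.12 at 72 h and still at −0.94 ± 0.16 and −0.85 ± 0.12 at 120 h, both called lower. The ORC1 signal in miR-124 cells, 5.64 and 5.86 log2 at these times, lay below the median of all probe sets (6.19), so the size of its ratios is uncertain. Geminin, the inhibitor of CDT1, had the smallest fall of the licensing genes (−0.68 ± 0.11) and a ratio of 0.14 ± 0.11 at 120 h.

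Genes for helicase activation and the fork were also all called lower at 72 h, 8 of 8, with a median of −1.25. MCM10, which helps switch on the helicase, had log2 levels of 9.38, 9.37, 9.20, 8.88, 8.41, 6.51 and 8.00 in miR-124 cells. In control cells the levels were 9.52, 9.38, 9.37, 9.39, 9.40, 9.22 and 7.87. Control cells thus held MCM10 level until 72 h and had lost it by 120 h, when both transfections were near 8. The MCM10 ratio was −2.71 ± 0.23 at 72 h (6.56-fold lower, adjusted p = 9.5e-05) and 0.14 ± 0.23 at 120 h (adjusted p = 0.705).

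GINS2, a subunit of the GINS complex, had log2 levels of 9.99, 9.89, 9.73, 9.05, 8.59, 7.24 and 8.75 in miR-124 cells. In control cells they were 9.90, 9.89, 9.87, 9.73, 9.68, 9.71 and 8.94. GINS2 had therefore begun to part from control by 24 h, and its ratio was −2.47 ± 0.26 at 72 h (adjusted p = 0.000215) and −0.18 ± 0.26 at 120 h. A dimmer GINS2 probe set gave −0.15 at 72 h. The 4 subunits of the complex differed among themselves: GINS1 was at −2.01 ± 0.13 at 72 h, GINS3 at −0.79 ± 0.10 and GINS4 at −0.61 ± 0.18. GINS4 was the weakest of these calls (adjusted p = 0.0316) and was lost when each array was centred on its median, without the block, or without the 24 h pair. CDC45 was at −1.05 ± 0.13 at 72 h and stayed called lower at 120 h (−0.43 ± 0.13, adjusted p = 0.0433), while the fork checkpoint adaptor CLSPN was at −1.05 ± 0.12 and then −0.10 ± 0.12. MCM8, a helicase of recombination repair, was the 1 gene called higher at 120 h, at 7.33 log2 in miR-124 cells against 6.83 in control cells (ratio 0.50 ± 0.15, adjusted p = 0.0421). It was not called when arrays were centred, without the block, with a 1.5-fold minimum, or without the 4, 8 or 24 h pair.

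Polymerase and primase genes split by subunit, with 4 of 5 called lower at 72 h and a median of −1.16. POLE2, the second subunit of the leading-strand polymerase, was at 7.04 log2 in miR-124 cells and 8.79 in control cells at 72 h, and at 8.19 and 8.20 at 120 h. Its ratio was −1.75 ± 0.17 (adjusted p = 0.000164) and then −0.02 ± 0.17 (adjusted p = 0.953). Relative to the early period, POLE2 at 120 h was still −0.71 in miR-124 cells, and it was −0.61 in control cells. POLD1, the catalytic subunit of the lagging-strand polymerase, was at 6.41 and 7.62 at 72 h and at 6.96 and 7.66 at 120 h. It remained low, at −1.22 ± 0.18 and then −0.70 ± 0.18 (adjusted p = 0.0258). PRIM1, the primase subunit, likewise stayed low at 120 h (−0.49 ± 0.13), while POLA1, the catalytic subunit of the priming polymerase, was at −1.16 ± 0.12 at 72 h and −0.34 ± 0.12 at 120 h (adjusted p = 0.0813). POLA2, the accessory subunit of the priming polymerase, had the highest 72 h ratio of the 45. Its log2 levels lay between 6.98 and 7.23 in miR-124 cells and between 7.01 and 7.15 in control cells, and the groups overlapped. Its ratio was 0.01 ± 0.11 at 72 h (adjusted p = 0.945), and its other probe set above the filter gave −0.30.

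The sliding clamp and its loader moved apart. The 4 small loader subunits RFC2 to RFC5 were called lower at 72 h, among 7 of 9 genes of this group (median −1.14). RFC1, the large loader subunit and not one of the 45, was at 0.20 (adjusted p = 0.173), and is named here after its value was seen. RFC5 had log2 levels of 9.41, 9.16, 9.11, 8.62, 8.30, 6.53 and 8.05 in miR-124 cells. In control cells the levels were 9.45, 9.32, 9.24, 9.07, 9.09, 8.87 and 8.15. At 72 h RFC5 was 5.03-fold lower (−2.33 ± 0.19, adjusted p = 9.11e-05), and the 2 transfections were close again at 120 h (−0.10 ± 0.19). One of the 2 other RFC5 probe sets gave −1.46 and −1.07 at these times and so showed little return, and with the mean over probe sets the return was no longer called. RFC3 was at 7.96 in miR-124 cells and 10.00 in control cells at 72 h, and at 9.11 and 9.30 at 120 h. The RFC3 ratio was −2.04 ± 0.18 (adjusted p = 0.000105) and then −0.19 ± 0.18, although 1 of its 3 probe sets gave only −0.22 at 72 h.

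RFC2 and RFC4 fell less than RFC3 and RFC5 in value, at −1.14 ± 0.14 and −1.39 ± 0.15 at 72 h, and RFC4 was still called lower at 120 h (−0.54 ± 0.15, adjusted p = 0.0319).

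PCNA itself was not called at any period. In miR-124 cells PCNA was at 12.65, 12.46, 12.66, 12.64, 12.61, 12.14 and 12.19 log2. In control cells it was at 12.64, 12.62, 12.51, 12.48, 12.50, 12.29 and 11.95. Both transfections were lower at 72 and 120 h than before, and the ratio was −0.14 ± 0.11 at 72 h (adjusted p = 0.352) and 0.24 ± 0.11 at 120 h (adjusted p = 0.142). FEN1, which trims lagging-strand fragments, was 3.09-fold lower at 72 h (−1.63 ± 0.13) and at 0.26 ± 0.13 at 120 h, while the ligase LIG1 had −0.48 ± 0.20 at 72 h and was not called (adjusted p = 0.100). The single-strand binding subunits RPA2 and RPA3 had small falls of −0.36 ± 0.12 and −0.55 ± 0.11, and the RPA2 call was lost with no filter, with centring, with an intensity trend or without the 24 h pair.

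Of the 4 nucleotide supply genes 3 were called lower at 72 h. RRM2, the S phase subunit of ribonucleotide reductase, had log2 levels of 12.08, 11.99, 12.13, 11.89, 11.59, 9.44 and 10.83 in miR-124 cells. In control cells they were 12.18, 11.93, 12.07, 12.14, 12.10, 12.23 and 11.49. RRM2 was 6.89-fold lower at 72 h (−2.78 ± 0.18, adjusted p = 3.19e-05) and still 1.58-fold lower at 120 h (−0.66 ± 0.18, adjusted p = 0.0293). Its partner RRM1 fell less, at −1.09 ± 0.13, and was at −0.14 ± 0.13 at 120 h. TK1 was at 7.65 in miR-124 cells and 8.84 in control cells at 72 h, and at 8.37 and 8.98 at 120 h, with ratios of −1.19 ± 0.11 and −0.61 ± 0.11 (adjusted p = 0.00497), both called lower. Thymidylate synthase, TYMS, was at 12.04 in miR-124 cells and 12.32 in control cells at 72 h (−0.28 ± 0.10, adjusted p = 0.0649) and was near RRM2 in brightness. It was called lower at 72 h with the mean over its probe sets and with an intensity trend.

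Of the chromatin assembly genes 3 of 4 were called lower at 72 h. UHRF1, which brings the maintenance DNA methyltransferase to replicated DNA, had log2 levels of 11.04, 10.80, 10.67, 9.93, 9.56, 7.99 and 9.92 in miR-124 cells. In control cells they were 11.15, 10.71, 10.89, 10.33, 10.15, 10.10 and 9.48. UHRF1 declined in both up to 72 h, further with miR-124, and at 120 h the miR-124 array was the higher of the pair (ratio 0.44 ± 0.14, adjusted p = 0.0594, after −2.11 ± 0.14 at 72 h). ASF1B, a histone chaperone, had 8.90, 8.74, 8.29, 8.12, 8.00, 7.54 and 7.95 in miR-124 cells. In control cells it had 8.98, 8.78, 8.93, 8.85, 9.00, 8.80 and 8.69. ASF1B was unlike UHRF1: from 16 h on every miR-124 array lay below every control array, and the ratio was −0.79 ± 0.08 in the middle period, −1.27 ± 0.14 at 72 h and −0.74 ± 0.14 at 120 h. The CAF-1 subunit CHAF1A was at −0.81 ± 0.15 at 72 h. Its partner CHAF1B was not called at any period, at 6.82 in miR-124 cells and 7.10 in control cells at 72 h (−0.27 ± 0.12, adjusted p = 0.106).

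All 4 genes of G1/S control were called lower at 72 h, at very different sizes. DTL, the substrate receptor of the ligase that destroys CDT1 in S phase, fell most of the 45. Its log2 levels in miR-124 cells were 9.62, 9.21, 9.04, 8.50, 8.00, 6.16 and 8.30. In control cells they were 9.80, 9.32, 9.93, 9.72, 9.68, 9.68 and 8.76. The courses parted at 16 h and the gap widened to 11.5-fold at 72 h (−3.52 ± 0.22, adjusted p = 3.16e-05), then closed to 1.38-fold at 120 h (−0.46 ± 0.22, adjusted p = 0.169). The 72 h signal of DTL with miR-124, 6.16, lay just below the median of all probe sets (6.19), and no detection call was used here, so the fold at 72 h may be understated. Cyclin E2, CCNE2, was at 5.72 in miR-124 cells and 6.81 in control cells at 72 h (−1.09 ± 0.16, adjusted p = 0.00111), and at 5.87 and 5.47 at 120 h (0.40 ± 0.16, adjusted p = 0.115). All of these CCNE2 signals but the 72 h control lay below the median of all probe sets, so the sizes of its ratios are uncertain. Cyclin E1, CCNE1, fell less (−0.61 ± 0.11), and was not called with the mean over its probe sets.

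E2F1, a transcription factor whose promoter carries a pair of E2F matches, was low at both late times. In miR-124 cells E2F1 was at 7.74, 7.66, 7.55, 7.61, 7.52, 7.15 and 6.99 log2. In control cells it was at 7.75, 7.54, 7.78, 7.63, 7.58, 7.66 and 7.64. The ratio was −0.51 ± 0.12 at 72 h (adjusted p = 0.0089) and −0.66 ± 0.12 at 120 h (adjusted p = 0.00574), and the difference between them, −0.15 ± 0.16, was not called (adjusted p = 0.600). A dimmer E2F1 probe set gave −0.39 and −0.23 at these times.

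The return toward control was tested as the 120 h ratio minus the 72 h ratio, which uses the same 4 arrays as those 2 ratios and is no independent evidence of either. It was called higher for 29 of the 45 genes and lower for 0, with 8.07% and 2.72% of all genes, and its median was 0.95 against 0.00 over all tested genes. Licensing genes returned in 9 of 11 cases and helicase activation and fork genes in 6 of 8. The clamp and Okazaki group had 5 of 9, nucleotide supply 3 of 4, G1/S control 3 of 4, polymerases 2 of 5 and chromatin assembly 1 of 4. Leaving out any 1 of the 5 earlier times gave 22 to 30 genes. TK1, with the largest adjusted p of the 29 (0.0440), lost its call when any of the 4, 8, 24 or 32 h pairs was left out.

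The genes fell into several courses by these calls. In 24 the gene was low at 72 h, returned, and was not called at 120 h. MCM7, RFC4, RRM2 and TK1 returned in part and were still called lower at 120 h. MCM8 returned and was called higher at 120 h, a call lost in the alternatives given above for it. Relative to the early period, MCM8 at 120 h was −0.61 in miR-124 cells and −1.25 in control cells. In 7 genes the ratio was low at both times with no return called: ORC1, CDT1, CDC45, PRIM1, POLD1, ASF1B and E2F1. A missed call does not show that these did not return, since differences for 6 of the 7 lay between 0.40 and 0.62. GINS4, RPA2, RPA3 and CHAF1A were low at 72 h and called neither for a return nor at 120 h, and POLA2, PCNA, LIG1, TYMS and CHAF1B were not called at 72 h.

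**Figure D3:**
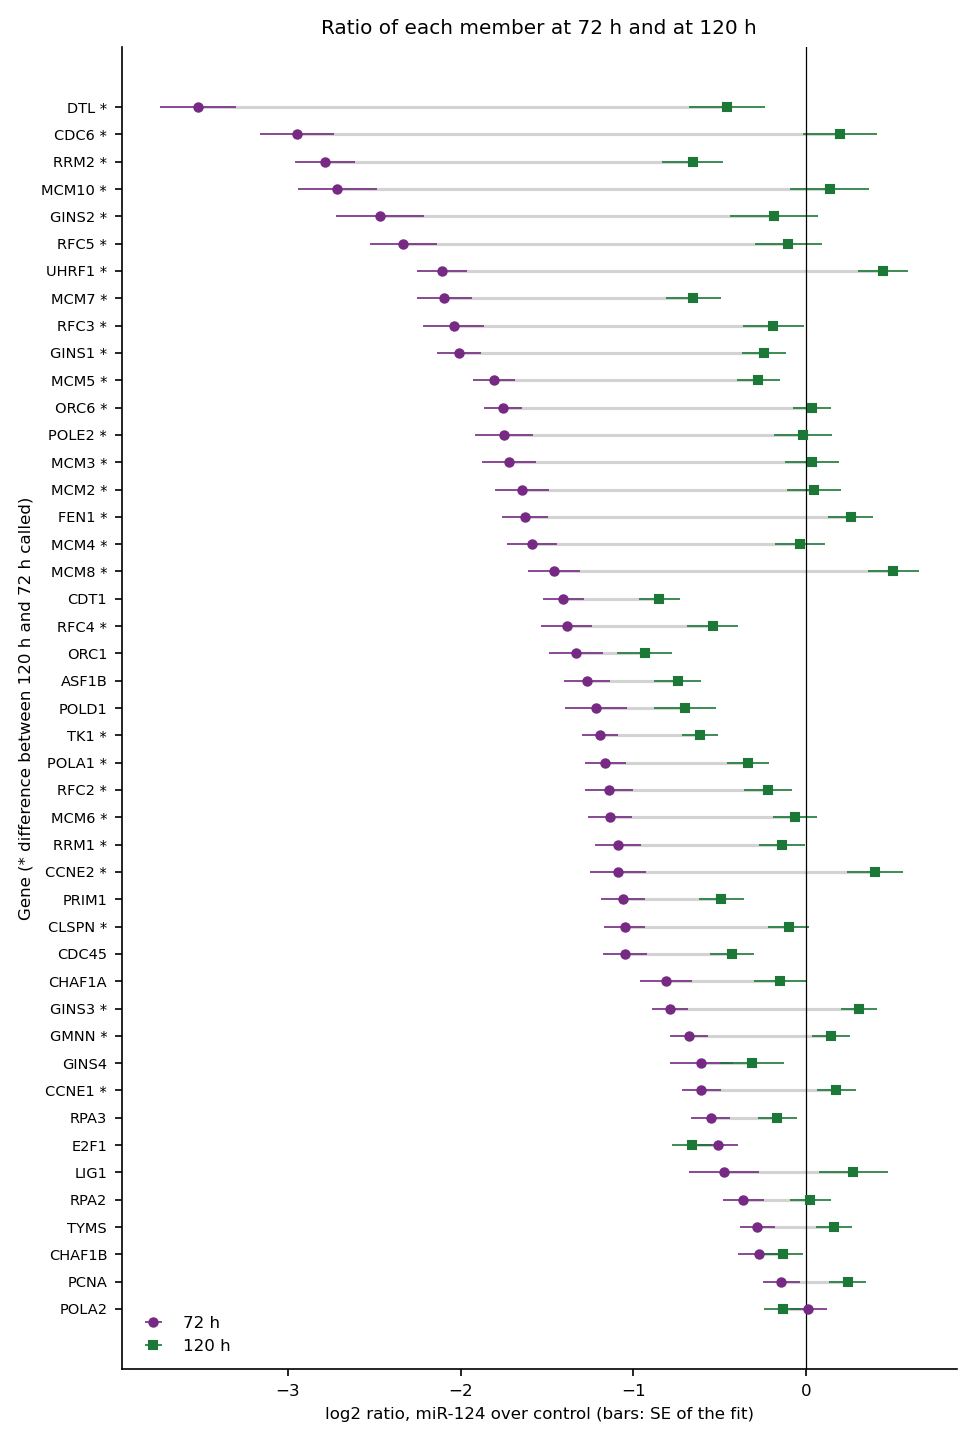
Log2 ratio of miR-124 over control (horizontal axis) for each of the 45 genes at 72 h (circles) and 120 h (squares), ordered by the 72 h ratio, with bars for the standard error of the limma fit and an asterisk where the difference was called (29 genes). DTL at the top goes with −3.52 at 72 h and −0.46 at 120 h, and E2F1 and POLA2 have their square left of their circle.

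Both transfections took part in the closing of the gap. Relative to the mean at 4 and 8 h, the median of the 45 genes in miR-124 cells was −1.61 at 72 h and −0.82 at 120 h. In control cells it was −0.23 at 72 h and −0.67 at 120 h. The miR-124 level thus ended below its own start, and the control level had also gone down by 120 h. From 72 to 120 h the miR-124 level went up and the control level down in 37 of the 45 genes. The share of all tested genes with this pattern was not counted, so it is not known whether the pattern is particular to the 45. Among the 29 genes with a called return, the miR-124 level went up in 29 and the control level down in 27, with medians of 1.07 and −0.62, and in 25 the rise with miR-124 was the larger of the 2 moves. The 29 were picked by the difference of these 2 moves on the same arrays. Their counts and medians therefore describe the picked genes and are no separate evidence that both transfections moved.

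Each transfection was also tested against its own start, in a limma fit with 1 mean for each transfection and period and no time block (6 residual degrees of freedom). In miR-124 cells 44 genes were lower at 72 h than in the early period (21.3% of all genes lower, 19.2% higher), POLA2 being the exception. At 120 h 35 were lower (12.8% lower, 16.2% higher). In control cells 1 gene, TYMS, was lower at 72 h (−0.49 ± 0.09, adjusted p = 0.0212; 1.42% of all genes lower, 1.55% higher), and 26 were lower at 120 h (12.8% lower, 9.1% higher). Without the 4 h pair 17 were called lower in control cells at 120 h. None of the 45 was called higher in any of these 4 comparisons.

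From 72 to 120 h in miR-124 cells, 12 genes were called higher and 0 lower, with 1.99% and 0.328% of all genes. They were MCM2, MCM3, MCM4, MCM5, MCM7, MCM8, MCM10, GINS1, RFC3, RFC5, RRM2 and DTL. DTL rose by 2.14 ± 0.40 (adjusted p = 0.0273) and RRM2 by 1.39 ± 0.21 (adjusted p = 0.0125), while UHRF1 with 1.93 ± 0.46 (adjusted p = 0.0572) and CDC6 with 1.80 ± 0.41 (adjusted p = 0.0521) missed the threshold. In control cells MCM10, GINS1, FEN1 and CCNE2 were called lower over the same interval and 0 genes higher, with 2.06% and 2.57% of all genes. FEN1 fell by 1.15 ± 0.17 (adjusted p = 0.00619) and CCNE2 by 1.33 ± 0.33 (adjusted p = 0.0483), against 0.16 ± 0.33 for CCNE2 in miR-124 cells, from signals that were dim as described above. These counts hang on single times: in miR-124 cells 0 genes were called without the 24 h arrays and 20 without the 16 h arrays, and in control cells 1 without 24 h, 12 without 16 h and 7 without 32 h.

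**Figure D4:**
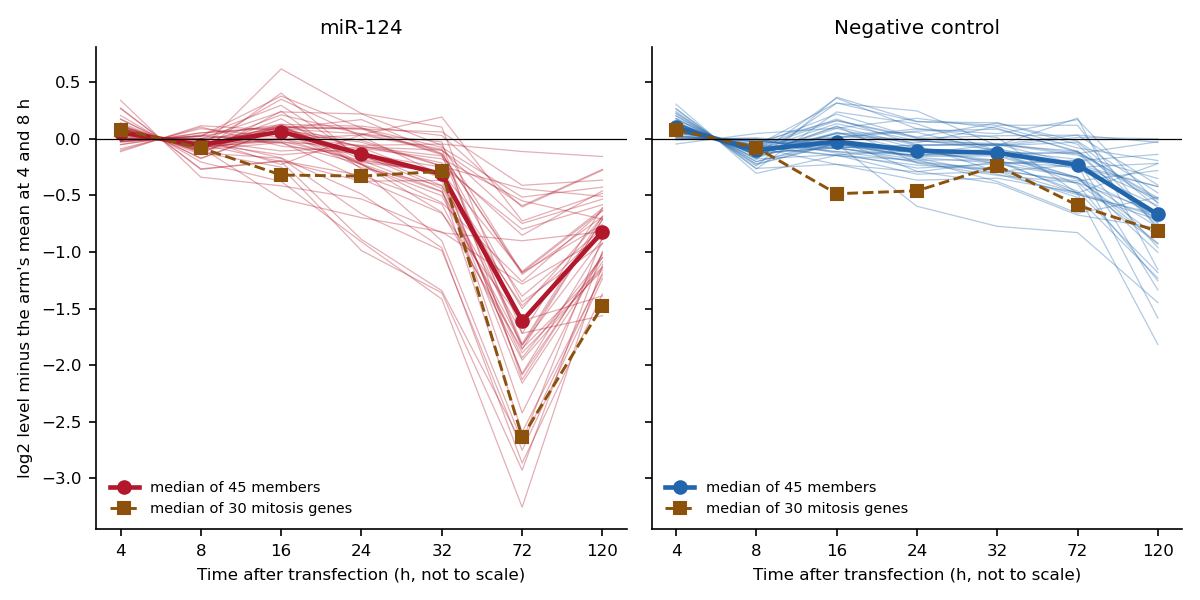
Log2 level of each of the 45 genes minus its mean at 4 and 8 h in the same transfection (vertical axis), at the 7 times (hours, not to scale), for miR-124 at left and negative control at right; thick lines are the median of the 45 genes and dashed lines that of 30 mitosis genes. The median with miR-124 reaches −1.61 at 72 h and −0.82 at 120 h, and that of control −0.23 and −0.67.

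**Figure D5:**
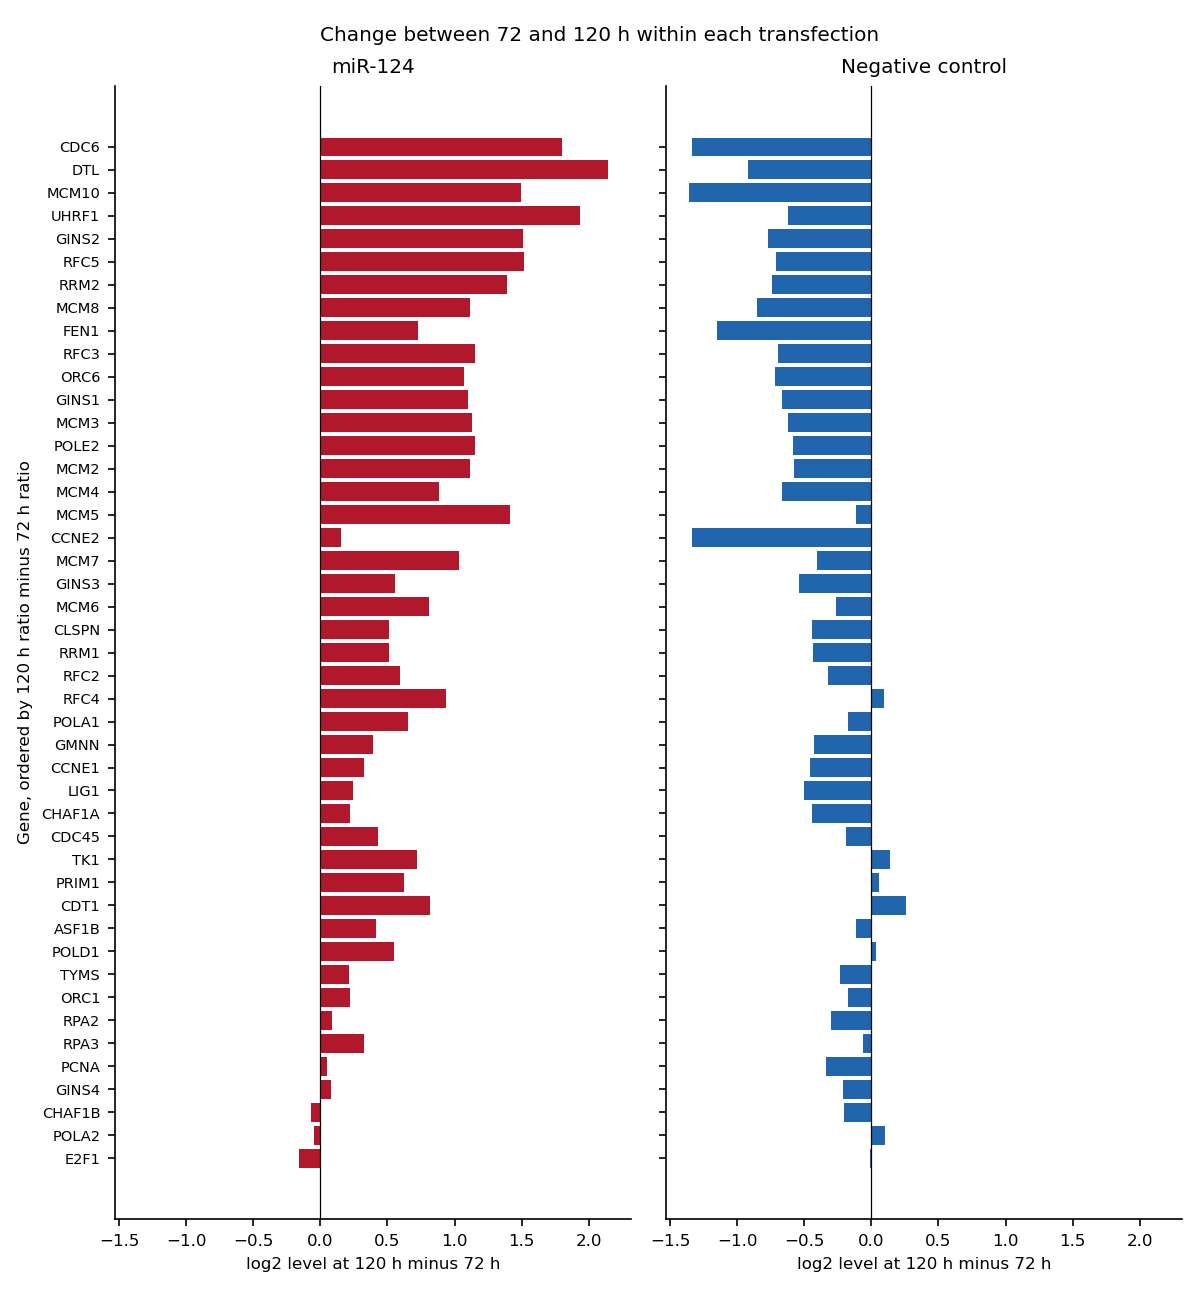
Log2 level at 120 h minus that at 72 h for each of the 45 genes, in miR-124 cells at left and control cells at right, ordered by the difference of the 2 ratios; each bar is 1 array minus 1 array, with no error. Bars of miR-124 point up the scale and bars of control down it in 37 genes, and E2F1 at the bottom shows −0.16 and −0.01.

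Other replication genes, outside the 45, were also mostly low at 72 h. Of 34 other replication factors tested (38 listed), 28 were called lower and 1 higher at 72 h, 5 lower and 1 higher at 120 h, and 19 higher and 1 lower for the return. Over all tested genes the shares were 19.8% lower and 17.4% higher at 72 h, and 8.68% lower and 14.6% higher at 120 h. For the return they were 8.07% higher and 2.72% lower. TOP2A, the topoisomerase of dividing cells, was at −2.59 ± 0.12 at 72 h and −0.80 ± 0.12 at 120 h, and SLBP, which binds histone messengers in S phase, was at −2.48 ± 0.32 and −0.42 ± 0.32. POLD4, a small subunit of the lagging-strand polymerase, was the 1 called higher at 72 h (0.82 ± 0.22), and it was at −0.36 ± 0.22 at 120 h. Among 23 tested regulators of the retinoblastoma and E2F pathway (24 listed), 14 were lower and 1 higher at 72 h, 3 lower at 120 h, and 12 were called for a return. SKP2, which targets the inhibitor p27 for destruction, was at −2.81 ± 0.29 at 72 h and −0.18 ± 0.29 at 120 h. CDKN1B, which encodes p27, was the 1 called higher at 72 h (0.32 ± 0.10). E2F8, a repressor E2F, was at −2.45 ± 0.21 and −0.45 ± 0.21, and cyclin A2, CCNA2, at −2.39 ± 0.21 and −0.56 ± 0.21.

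The G1 kinase CDK4 was at −2.72 ± 0.26 at 72 h and −0.96 ± 0.26 at 120 h, and CDK6 at −0.91 ± 0.15 and −0.67 ± 0.15, all called lower. The 3 D cyclins were not called at 72 h, when CCND1, CCND2 and CCND3 were at −0.07 ± 0.11, −0.13 ± 0.15 and 0.56 ± 0.19. CCND3 narrowly missed the threshold there (adjusted p = 0.0509). At 120 h CCND1 was called higher (0.36 ± 0.11, adjusted p = 0.0440), and CCND2 and CCND3 were at 0.43 ± 0.15 and 0.46 ± 0.19 without passing the test (adjusted p = 0.0777 and 0.120).

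Mitosis genes had lower median ratios than the 45 at both late times. All 30 were called lower at 72 h with a median of −2.05, and 25 were still called lower at 120 h with a median of −0.76, where the 45 genes had medians of −1.22 and −0.14. The return was called for 29 of the 30 mitosis genes, with a median of 1.39 against 0.95 for the 45. Of all genes, 19.8% were called lower at 72 h, 8.68% lower at 120 h and 8.07% higher for the return. NCAPG, a condensin subunit, was at −3.34 ± 0.17 at 72 h and −0.72 ± 0.17 at 120 h. ANLN, a scaffold of cytokinesis, was at −2.85 ± 0.19 and −0.95 ± 0.19, and the kinetochore gene NUF2 at −2.74 ± 0.13 and −1.12 ± 0.13. PTTG1, the securin gene, had the smallest fall of the list, −1.07 ± 0.10, and with −0.91 ± 0.10 at 120 h no called return. In control cells the mitosis genes had a median of −0.59 at 72 h and −0.82 at 120 h relative to the early period. The difference between the lists was not tested, and both are compared on the same arrays.

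Probe sets of the same gene mostly moved together. The 45 genes had 86 probe sets, 1 for 19 genes and several for 26. Of 29 further probe sets above the filter, 28 were below control at 72 h. Exceptions in size include those given above for MCM4, GINS2, RFC3, RFC5 and POLA2, and for E2F1 at 120 h. The 72 h calls of CCNE1 and TYMS also changed with the mean over probe sets.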

How the data were processed

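The values the authors deposited are log2 signals for each probe set. Per the submitters' processing notes they come from RMA, whose version and settings are not given in the sources used here. Values ran over 2.93 to 14.4 with none missing, which is how the log2 scale was recognised. Array medians lay between 6.15 and 6.21. Of 54675 probe sets, 41091 had 1 gene symbol in the platform annotation, 1801 had several and 11721 none. For each of 19775 genes the probe set of highest mean was used, and 13128 genes with a mean above the median of all probe sets (6.19 log2) were tested. Arrays have no depth, and precision is limited by how many there are. No label says whether arrays are separate cultures, so the p-values reflect the spread among arrays of this series alone, which may be technical. In the main fits by period that spread comes from the 4 to 32 h arrays. The lone 72 h and 120 h arrays add none. limma 3.58.1 (lmFit and eBayes, two-sided) was run in R 4.3.3, and figures and tables were made in Python 3.11.15 with matplotlib 3.10.9. The procedure was checked on simulated data. There every array of a gene was given the same spread, so the assumption about the lone 72 h and 120 h pairs was not checked. Arrays of 1 time were paired from their labels, and their deviations from the group means had correlations of 0.205 to 0.480, all 7 above 0.1. These deviations include any change with time shared by both transfections, so they do not show whether arrays were handled in pairs. Alternatives were no filter, centring, the mean over probe sets, an intensity trend, a 1.5-fold minimum, no time block, 3 windows, and each time left out.

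The 45 members and all lists were chosen with earlier results of these data known. By a rule, the 2 genes with the lowest 72 h ratio in each role, the 3 highest and the 4 with the smallest return were described most fully, and of other lists up to 3 lowest and 1 highest among the genes called at 72 h were named. Some genes of the lists were not analysed here. The mature sequence of miR-124 is not shown.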

Additional observations from a re-analysis of the deposited data

Results flagged for a closer look

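For each of the 45 genes the 7 ratios, the 7 levels with miR-124 and the 7 control levels were examined for a single time far from the others, and 42 of the 135 series held one. Chance gives about 1 in 20, and the 7 times are points of a course and not replicates, so an outlying time here can be the course itself. In 23 genes the 72 h ratio stood apart, with log2 ratios in ORC6 (−1.76), CDC6 (−2.94), GMNN (−0.68), MCM2 (−1.64), MCM3 (−1.72), MCM4 (−1.59), MCM5 (−1.81), MCM6 (−1.14), MCM7 (−2.09), MCM8 (−1.46), MCM10 (−2.71), GINS1 (−2.01), GINS3 (−0.79), CLSPN (−1.05), POLA1 (−1.16), POLE2 (−1.75), RFC2 (−1.14), RFC3 (−2.04), RFC5 (−2.33), FEN1 (−1.63), RRM1 (−1.09), RRM2 (−2.78) and UHRF1 (−2.11). With miR-124 the 72 h level stood apart in CDC6 (7.30), MCM2 (8.51) and MCM3 (9.00), in log2.

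In control cells 16 levels stood apart, and all but 1 of them were the 120 h level. These log2 levels at 120 h were CDC6 (8.90), GMNN (11.25), MCM3 (10.09), MCM4 (9.50), MCM8 (6.83), MCM10 (7.87), GINS1 (9.76), GINS2 (8.94), CLSPN (7.08), POLE2 (8.20), RFC3 (9.30), FEN1 (8.73), RRM2 (11.49), CHAF1A (7.79) and CCNE2 (5.47). The remaining one was the 4 h level of CDT1, at 9.05. The difference between the 72 h and 120 h ratios, tested itself as an interaction of transfection and time in limma, was called for 29 of the 45 genes, and for all of them the ratio was higher at 120 h.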

How the results depend on the processing

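In the alternatives 37 to 40 genes were called lower at 72 h and 21 to 30 were called for a return. Leaving out a time gave 38 to 41 and 22 to 30. Each ratio at 72 or 120 h is 1 array minus 1 array, so only centring and the mean over probe sets could change its value or direction. The other alternatives change the spread, the threshold or the genes tested, and 3 windows has no separate 72 h or 120 h ratio. Per gene, 986 values at 72 h or of the return kept their side of the threshold, 37 lost a call and 8 gained one. Of the values called in the main fit or in the alternative, 0 changed sign. A change of sign was possible only with centring or the mean over probe sets, so this count says little about steadiness. Sign changes of values called in neither were not counted. The middle-period count of 9 lower genes became 3 without the time block, 3 with a 1.5-fold minimum and 1 with 3 windows, and its 1 higher gene became 0 in these and with the mean over probe sets. At 120 h the 11 lower genes became 4 without the time block, and the 1 higher gene became 0 with centred arrays, without the block and with the 1.5-fold minimum, and 2 with an intensity trend. The 1 lower gene in control cells at 72 h became 2 with the trend and 0 with the minimum. Leaving out a time gave 2 to 12 lower and 0 to 1 higher in the middle period, 6 to 11 lower and 0 to 3 higher at 120 h, and 0 to 2 lower for the average over times. Within miR-124 cells it gave 43 to 44 lower at 72 h, 27 to 41 lower at 120 h and 0 to 20 higher from 72 to 120 h. Within control cells it gave 0 to 2 lower at 72 h, 17 to 32 lower at 120 h and 1 to 12 lower from 72 to 120 h. With 72 and 120 h pooled as 1 window, 20 of the 45 genes were called lower. That window's ratio averages the 2 times, and the spread then holds the change between them. The part of each in this count, and the cause of the other moves, was not tested. The 120 h pair was left out for the 72 h ratios and the 72 h pair for the 120 h ratios, but a ratio at 72 or 120 h rests on its own lone pair, which cannot be left out of it.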
